A study of Mus musculus with 6 samples.

Results

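The WNT ligands, their receptors and their secreted inhibitors were examined in bulk RNA-seq data of Tomato+ cells from the mouse knee. Members were taken by gene symbol: every Wnt, R-spondin, Frizzled, SFRP and Dickkopf gene in the table, together with *Frzb*, *Wif1*, *Lrp5*, *Lrp6*, *Ror1*, *Ror2*, *Ryk* and *Axin2*. This gave 45 genes of the 17854 in the table, of which 15 encode Wnt ligands, 4 R-spondins, 15 receptors and 10 secreted inhibitors, with *Axin2*, a target of the pathway, as the remaining gene. *Wnt7a*, *Wnt8a*, *Wnt8b* and *Wnt9b* had no row under these symbols in the table, so they were not analysed here. The libraries labelled InjectPrrx (n = 3) hold Tomato+ cells from articular cartilage of male C57BL/6 mice, whose knee osteoarthritis had been induced by transection of the anterior cruciate ligament and treated with an injection of *Prrx1*-lineage mesenchymal stromal cells (MSCs) from inguinal white fat, taken from *Prrx1-Cre; R26*-tdTomato donors. The host mice themselves carried no label. The libraries labelled NativePrrx (n = 3) hold Tomato+ cells from articular cartilage of *Prrx1-Cre; R26*-tdTomato males on the same background, matched for age and sex, which were born with the label. These are called the MSC-derived and the endogenous cells below. In both, the red label marks any cell with an ancestor that expressed Cre under *Prrx1*, a gene of limb mesenchyme, so it follows a lineage and not a cell type. The names MSC-derived and endogenous stand for whole libraries of sorted cells, whose purity was not tested. *S100a8*, a neutrophil marker, had 371887, 381976 and 377998 counts in the MSC-derived libraries and 10753, 14090 and 18993 in the endogenous ones. *Col2a1*, a chondrocyte marker, had 11147, 10604 and 10718 against 791142, 806693 and 837609. A level given for either group is thus that of a library and may include RNA of other cells. The age in weeks at harvest is not given in the labels. Surgery, injection and donor tissue all differ between the groups and cannot be told apart here.

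WNT ligands are secreted, lipid-modified glycoproteins that bind a Frizzled receptor on the surface of the receiving cell. With the co-receptors LRP5 and LRP6 they stabilise β-catenin, which then acts with TCF/LEF factors on target genes, and with ROR and RYK receptors they act on cell shape and polarity instead. R-spondins raise the number of Frizzled receptors at the surface. SFRP proteins, FRZB and WIF1 bind the ligands outside the cell, and Dickkopf proteins bind the LRP co-receptors. In joints, β-catenin activity drives bone formation, whereas articular cartilage is rich in secreted WNT inhibitors.

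Expected counts of the 6 libraries summed to between 22060628 and 24881796. Endogenous replicate 1 stood apart from its group, with 3459 genes that had no count, whereas the other endogenous libraries had 1338 and 1395, and with Spearman correlations to them of 0.955 and 0.957 (log2 counts scaled by library size), against 0.995 between replicates 2 and 3. All libraries are labelled chondrocyte. The 16 genes of a chondrocyte list summed to 15554 to 17504 FPKM in the endogenous libraries and to 404.3 to 419.0 FPKM in the MSC-derived ones, where FPKM is the read count scaled to transcript length and to library size. The 18 genes of a leukocyte list, among them *Ptprc*, went the other way, with 13439 to 13875 FPKM in the MSC-derived libraries and 415.5 to 579.1 FPKM in the endogenous ones. The label thus fits the markers of the endogenous libraries, which also held osteoblast genes at 34263 to 51596 summed FPKM, better than those of the MSC-derived ones. FPKM over all genes summed to 808701 to 813572 in the MSC-derived and to 504768 to 573603 in the endogenous libraries, so levels of different groups are not on one scale, and fold changes were taken from counts.

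Of the 45 members, 38 had enough counts to be tested with edgeR's quasi-likelihood test, in which p-values were adjusted over all 14289 genes tested and called at an adjusted p of 0.05. The MSC-derived cells had lower expression of 32 members (84.2% of those tested, where 30.3% of all genes tested were called lower) and higher expression of 2 (5.26%, where 31.3% of all genes were called higher). The higher members were *Rspo2*, which encodes an R-spondin, and *Sfrp2*, which encodes a secreted inhibitor. *Wnt2b*, *Wnt16*, *Rspo1* and *Lrp6* were not called. The normalised counts of both groups did not overlap for 36 of the 38 members, where this held for 72.4% of all genes tested. Some members, such as *Wnt7b*, *Sfrp5* and *Dkk1*, had enough counts to be tested only through the endogenous libraries. For these a call could hardly go the other way, so the counts of calls and of groups without overlap partly reflect how members entered the test. Without endogenous replicate 1, 36 of 40 members tested were called lower and 3 higher, in a fit where the calls over all genes rose too, to 38.6% lower and 37.8% higher. The median log2 fold change of the 38 members was -2.94, against 0.05 for all genes tested, and negative values mean lower expression in the MSC-derived cells. Each fold change is given with its standard error (SE). Over all genes, 4468 were called higher and 4333 lower, a split that became 3051 and 5948 in limma on log2(TPM + 0.1), where TPM is scaled to the same sum in each library. In bulk RNA, fewer cells that express a gene and less of its RNA per cell give the same result and cannot be told apart.

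The fall of the WNT genes was set beside that of genes common to mesenchymal cells. A list of 20 such genes, among them *Col1a1*, *Col1a2* and *Col3a1*, had 0 called higher and all 20 called lower, with a median log2 fold change of -3.10 by edgeR. Its genes ranged widely, from -5.48 to -0.24, so the median is a reference point and not a fall shared by the whole list. Of the 38 WNT members tested, 22 lay above that median and 16 below it, where 13225 of all genes tested lay above it and 1064 below. Relative to it, *Fzd7* stood 2.53 higher on the log2 scale, *Lrp5* 2.75, *Rspo2* 3.80 and *Sfrp2* 3.96, whereas *Wif1*, *Wnt4* and *Sfrp5* stood at -2.52, -3.12 and -5.30. The part of leukocytes and other cells in these differences was not tested.

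**Figure D1:**
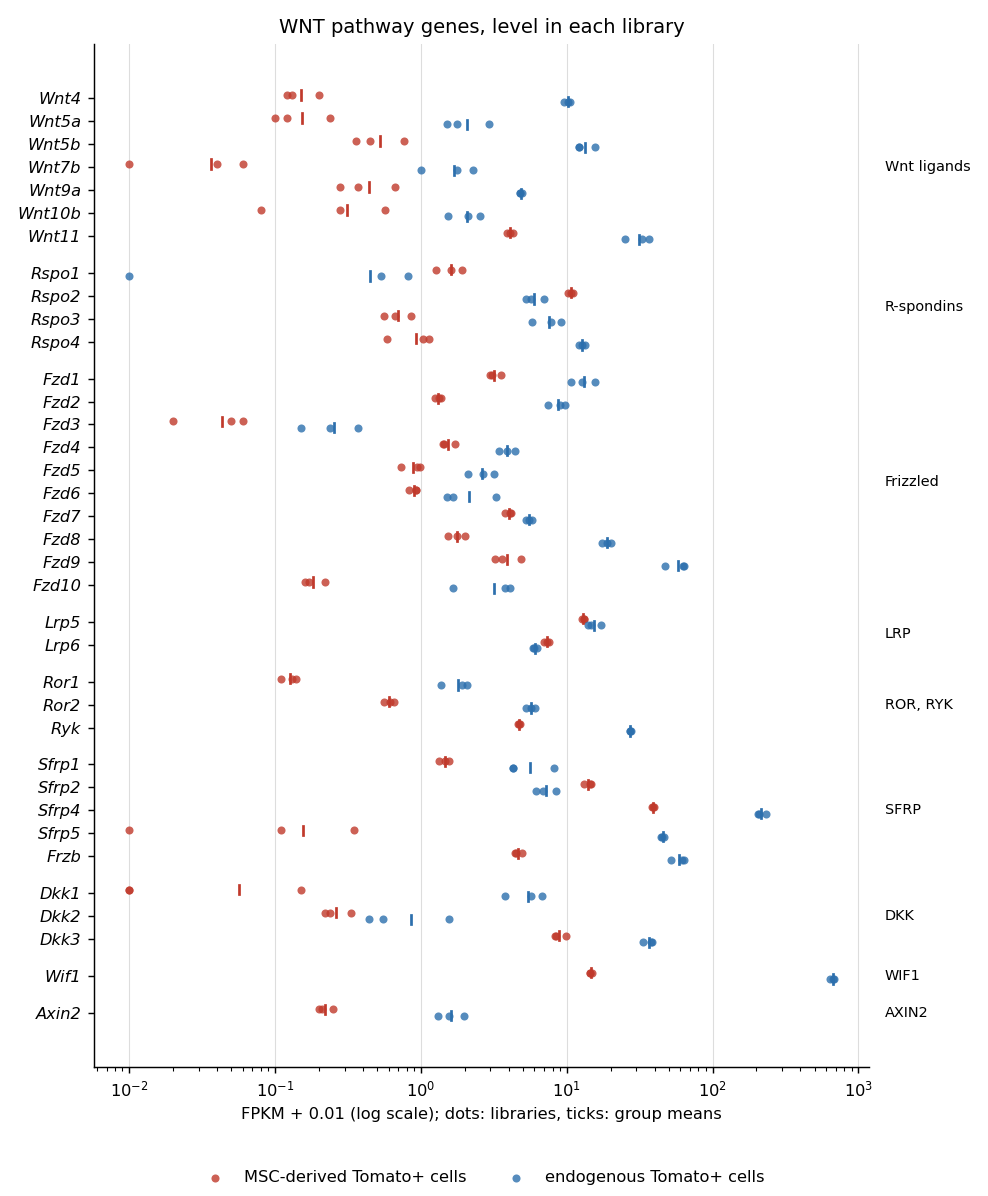
FPKM + 0.01 on a log axis for the 36 members with a mean of at least 1 FPKM in either group or a called difference, grouped by role, with dots for the 3 libraries of each group and ticks for the group means. The dots of the endogenous cells lie to the right of those of the MSC-derived cells for all but *Rspo1*, *Rspo2*, *Lrp6* and *Sfrp2*, and *Wif1* has the highest level, 642.3 to 682.4 FPKM, in the endogenous cells.

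**Figure D2:**
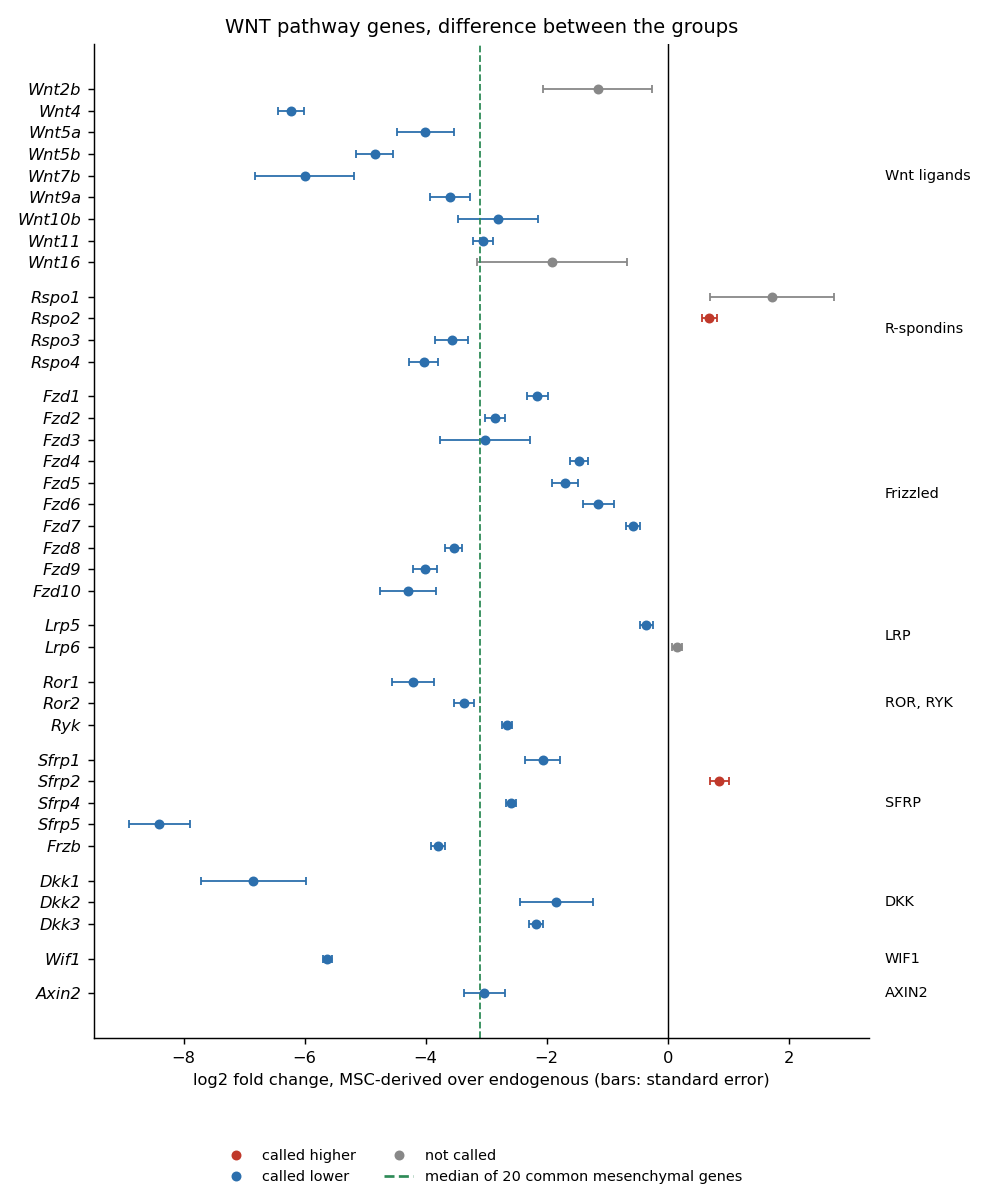
The log2 fold change of the MSC-derived over the endogenous cells for the 38 members tested, with bars for the standard error, colours for the call at an adjusted p of 0.05, and a dashed line at the median of 20 common mesenchymal genes (-3.10). The values run from -8.40 for *Sfrp5* to 1.73 for *Rspo1*, which was not called.

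Of the 15 Wnt ligand genes, 9 were tested, 7 were lower in the MSC-derived cells and 0 higher, by edgeR at either an adjusted or an unadjusted p of 0.05. *Wnt11*, a ligand best known for its role in polarity and cell movement, was the most abundant ligand of both groups. Its level was 4.27, 4.06 and 3.87 FPKM in the MSC-derived libraries and 25.1, 32.6 and 36.6 FPKM in the endogenous ones. Every MSC-derived library was thus far below every endogenous one, with endogenous replicate 1 the lowest of its group, and the log2 fold change was -3.05 (SE 0.16, edgeR adjusted p = 2.95e-06).

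*Wnt5b*, which regulates the passage of growth plate chondrocytes between zones, had 0.44, 0.76 and 0.35 FPKM in the MSC-derived libraries against 15.6, 12.2 and 12.1 FPKM in the endogenous ones. *Wnt4*, a ligand of joint and cartilage development, had 0.19, 0.11 and 0.12 FPKM against 10.1, 9.61 and 10.6 FPKM. In both cases the endogenous libraries lay close together and no MSC-derived library reached 1 FPKM. *Wnt5b* fell by 4.85 on the log2 scale (SE 0.31, edgeR adjusted p = 7.20e-06). *Wnt4* had the largest fitted fall of any ligand (log2 fold change -6.23, SE 0.21, edgeR adjusted p = 3.20e-07). *Wnt9a*, a ligand expressed where joints form, had 0.36, 0.66 and 0.27 FPKM in the MSC-derived libraries and 4.75, 4.76 and 4.94 FPKM in the endogenous ones. Its groups did not overlap, with the endogenous libraries almost level, and the log2 fold change was -3.60 (SE 0.33, edgeR adjusted p = 5.74e-05).

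The remaining called ligands were scarcer. *Wnt5a*, which signals mainly without β-catenin, had 15, 25 and 8 counts in the MSC-derived libraries and 330, 221 and 181 in the endogenous ones, a log2 fold change of -4.01 (SE 0.47, edgeR adjusted p = 0.000208). *Wnt10b*, a ligand that favours bone over fat formation, had 19, 4 and 29 counts against 131, 91 and 131, a log2 fold change of -2.81 (SE 0.66, edgeR adjusted p = 0.00755). The spread of both was wide among the MSC-derived libraries, but neither reached an endogenous value. *Wnt7b*, another ligand of bone formation, had 0, 4 and 2 counts against 75, 175 and 140. At so few counts the fitted fold is unsure, and summed counts, scaled by library size, were 63.1-fold lower in the MSC-derived cells, with a 95% exact interval of 28.7 to 172.9 that covers counting error only.

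*Wnt2b* had 3, 6 and 12 counts in the MSC-derived libraries and 3, 18 and 25 in the endogenous ones, and *Wnt16* had 4, 10 and 4 against 0, 26 and 40. Both pairs of groups overlapped through endogenous replicate 1, and neither gene was called (log2 fold change -1.15, 95% interval -3.27 to 0.97, and -1.91, 95% interval -4.83 to 1.01). Both were called lower when that library was left out. *Wnt1*, *Wnt2*, *Wnt3*, *Wnt3a*, *Wnt6* and *Wnt10a* were too low to be tested, with at most 26 counts in any library, and so was *Dkk4*, with at most 2. Fitted without a filter by edgeR or DESeq2, these 7 genes gave 0 calls, although *Wnt1* and *Wnt6* were called lower by edgeR without endogenous replicate 1, and *Wnt1* also without MSC-derived replicate 3.

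The R-spondins divided. *Rspo2*, needed for limb outgrowth, was at 10.75, 10.99 and 10.21 FPKM in the MSC-derived libraries and at 5.22, 5.68 and 6.93 FPKM in the endogenous ones. Each MSC-derived library was above each endogenous one, with a log2 fold change of 0.69 (SE 0.13, edgeR adjusted p = 0.00235). The direction held but the call was lost in limma on log2(TPM + 0.1), with a log2 difference of 0.29 and an adjusted p of 0.0923. *Rspo3* had 0.55, 0.85 and 0.66 FPKM in the MSC-derived libraries against 9.08, 5.74 and 7.76 FPKM, and *Rspo4*, known for its role in nail growth, had 0.58, 1.12 and 1.03 FPKM against 12.8, 12.1 and 13.4 FPKM. These groups were far apart, with log2 fold changes of -3.57 (SE 0.28, edgeR adjusted p = 2.08e-05) and -4.03 (SE 0.24, edgeR adjusted p = 5.17e-06). *Rspo1* had 51, 62 and 69 counts in the MSC-derived libraries and 0, 20 and 33 in the endogenous ones. Its groups did not overlap, but the spread within the endogenous group was large and the gene was not called (log2 fold change 1.73, SE 1.03, edgeR adjusted p = 0.183). It was called higher without endogenous replicate 1, the library at 0 (log2 fold change 2.50, edgeR adjusted p = 0.0153). Limma also called it, with either pseudocount on the log2 FPKM scale.

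The Frizzled genes, which encode the seven-pass receptors of WNT ligands, were all called lower in the MSC-derived cells (10 of 10), with log2 fold changes from -4.29 to -0.58 and a median of -2.50. When the median of the mesenchymal genes was subtracted, 7 of the 10 turned positive, where 13225 of all 14289 genes tested lay above that median. *Fzd9* was the leading receptor of the endogenous cells, at 47.0, 62.5 and 63.4 FPKM, and had 3.22, 4.82 and 3.58 FPKM in the MSC-derived libraries. *Fzd8* had 17.5, 20.1 and 18.8 FPKM in the endogenous libraries and 1.75, 1.53 and 1.99 FPKM in the MSC-derived ones. Both were well separated between the groups. Their log2 fold changes were -4.01 (SE 0.20, edgeR adjusted p = 2.20e-06) for *Fzd9* and -3.54 (SE 0.15, edgeR adjusted p = 7.72e-07) for *Fzd8*. *Fzd9* is known for its role in osteoblasts.

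*Fzd7* showed the smallest fall of the family. Its level was 4.13, 4.08 and 3.78 FPKM in the MSC-derived libraries and 5.75, 5.23 and 5.52 FPKM in the endogenous ones. The groups were close but did not overlap, with a log2 fold change of -0.58 (SE 0.12, edgeR adjusted p = 0.00349). *Fzd1* had 3.52, 3.04 and 2.98 FPKM against 15.7, 12.8 and 10.6 FPKM, and *Fzd2* had 1.36, 1.24 and 1.33 FPKM against 7.47, 9.67 and 9.04 FPKM. These receptors of β-catenin signaling were clearly separated, with log2 fold changes of -2.15 (SE 0.17, edgeR adjusted p = 2.14e-05) and -2.85 (SE 0.16, edgeR adjusted p = 4.04e-06). *Fzd4*, the receptor that norrin also uses, *Fzd5* and *Fzd6* were also called lower, with log2 fold changes of -1.47, -1.70 and -1.14, with endogenous means of 3.91 ± 0.491, 2.63 ± 0.525 and 2.14 ± 0.978 FPKM (SD, n = 3). *Fzd10* and *Fzd3* were the scarcest of the family in the MSC-derived cells, and both were called lower. *Fzd10* ranged from 109 to 284 counts in the endogenous libraries and from 10 to 13 in the MSC-derived ones, and *Fzd3* from 42 to 113 and from 2 to 14.

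The LRP co-receptors had the smallest fold changes of all members tested. *Lrp5*, whose human counterpart controls bone mass, had 13.2, 13.2 and 12.6 FPKM in the MSC-derived libraries and 13.9, 17.2 and 14.7 FPKM in the endogenous ones. The groups lay next to each other, with a log2 fold change of -0.35 (SE 0.10, edgeR adjusted p = 0.0209). This call was lost with total counts as the only scaling, in limma on log2 FPKM, and in each fit without 1 of the 3 MSC-derived libraries, where the edgeR adjusted p was at most 0.0856. *Lrp6* had 7.30, 7.54 and 6.98 FPKM in the MSC-derived libraries and 5.85, 5.96 and 6.25 FPKM in the endogenous ones. It was not called (log2 fold change 0.16, 95% interval -0.04 to 0.35, edgeR adjusted p = 0.139), and its sign turned in limma on log2(TPM + 0.1), with -0.29.

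The receptors that act mainly without β-catenin all fell. *Ryk*, a receptor related to tyrosine kinases, had 4.62, 4.76 and 4.70 FPKM in the MSC-derived libraries and 27.7, 27.0 and 27.1 FPKM in the endogenous ones. With so little spread in either group, its log2 fold change of -2.66 had a SE of 0.09 (edgeR adjusted p = 2.73e-07). *Ror2*, the WNT5A receptor of skeletal growth, had 0.55, 0.64 and 0.60 FPKM against 6.02, 5.28 and 5.67 FPKM. Again the groups were far apart, with a log2 fold change of -3.36 (SE 0.17, edgeR adjusted p = 2.20e-06). *Ror1* fell by 4.21 on the log2 scale (SE 0.35, edgeR adjusted p = 3.05e-05), from 147 to 250 counts in the endogenous libraries to 11 to 13.

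*Wif1*, which binds WNT ligands directly, was the most abundant member in the endogenous cells. The endogenous libraries had 670.8, 642.3 and 682.4 FPKM, which placed its mean at rank 107 of all 17854 genes, and the MSC-derived libraries had 14.5, 15.0 and 14.4 FPKM, rank 4678. Levels within each group were nearly the same, and the log2 fold change was -5.62 (SE 0.07, edgeR adjusted p = 1.97e-08). *Sfrp4*, which is needed for normal cortical bone, had 204.7, 232.7 and 208.1 FPKM in the endogenous libraries and 38.3, 38.9 and 39.9 FPKM in the MSC-derived ones. It was the most abundant member in the MSC-derived cells in spite of a log2 fold change of -2.58 (SE 0.08, edgeR adjusted p = 2.56e-07). *Frzb*, first isolated from cartilage and a marker of articular chondrocytes, had 51.9, 61.2 and 63.8 FPKM in the endogenous libraries and 4.43, 4.90 and 4.49 FPKM in the MSC-derived ones. Endogenous replicate 1 was the lowest of its group, still far above the other group, and the log2 fold change was -3.80 (SE 0.12, edgeR adjusted p = 2.20e-07).

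*Sfrp5*, known as an inhibitor made by adipocytes, had the lowest fold change of all members. It had 1830, 1805 and 1990 counts in the endogenous libraries and 0, 4 and 13 in the MSC-derived ones. Summed counts, scaled by library size, were 321.0-fold lower in the MSC-derived cells, with a 95% exact interval of 200.3 to 551.5 for counting error only, and the fitted log2 fold change of -8.40 (SE 0.50, edgeR adjusted p = 5.08e-06) depends on how the near-absent counts are handled. *Sfrp1*, whose product binds ligands and Frizzled receptors, had 1.45, 1.32 and 1.56 FPKM in the MSC-derived libraries and 8.17, 4.26 and 4.29 FPKM in the endogenous ones. Here endogenous replicate 1 was the highest, and the log2 fold change was -2.07 (SE 0.29, edgeR adjusted p = 0.000542).

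*Sfrp2* was the only secreted inhibitor called higher in the MSC-derived cells. This gene of fibroblasts and adipose stromal cells had 14.4, 14.6 and 13.2 FPKM there and 8.38, 6.92 and 6.15 FPKM in the endogenous libraries. All 3 MSC-derived libraries lay above all 3 endogenous ones (log2 fold change 0.86, SE 0.15, edgeR adjusted p = 0.00205). As for *Rspo2*, the direction held and the call was lost in limma on log2(TPM + 0.1), with 0.42 and an adjusted p of 0.0753.

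The Dickkopf genes fell where they could be tested (3 of 3). *Dkk3*, a divergent member whose action on WNT signaling is unclear, was at 9.84, 8.27 and 8.38 FPKM in the MSC-derived libraries and at 33.6, 38.6 and 37.5 FPKM in the endogenous ones. It was the single Dickkopf gene above 1 FPKM in any MSC-derived library, and it had a log2 fold change of -2.18 (SE 0.11, edgeR adjusted p = 2.34e-06). *Dkk1*, the classical antagonist of LRP co-receptors, had 182, 277 and 345 counts in the endogenous libraries and 7, 0 and 0 in the MSC-derived ones. It was near absent from the MSC-derived cells, 111.4-fold lower by summed counts, scaled by library size (95% exact interval 53.8 to 278.1, counting error only). *Dkk2*, which can activate or block LRP6, had 18, 26 and 18 counts in the MSC-derived libraries and 128, 36 and 47 in the endogenous ones. Endogenous replicate 1 was high, and the others, though much lower, lay above every MSC-derived library. The call (log2 fold change -1.84, SE 0.60, edgeR adjusted p = 0.0305) held in each fit without 1 endogenous library. It was lost in limma on log2 FPKM, in each fit without 1 MSC-derived library (edgeR adjusted p at most 0.111) and in the edgeR fit with the replicate number as a block (adjusted p = 0.104).

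Promoter sequences, from RefSeq for GRCm38.p6 and covering 250 bases before to 50 bases after a transcription start, are shown for the inhibitor with the highest level, 3 genes that fell and hold a TCF/LEF core motif, and the inhibitor that was higher in the MSC-derived cells. Capitals mark the motifs CTTTGA, a core of TCF/LEF sites, and TATAAA, the sequence of a TATA box. They are marked on either strand and at any distance from the start, so a marked TATAAA need not be a TATA box. No value was read by position, and the genome build named in the submitters' processing notes, mm9, is another one.
Wif1, chr10:121033754-121034053, + strand: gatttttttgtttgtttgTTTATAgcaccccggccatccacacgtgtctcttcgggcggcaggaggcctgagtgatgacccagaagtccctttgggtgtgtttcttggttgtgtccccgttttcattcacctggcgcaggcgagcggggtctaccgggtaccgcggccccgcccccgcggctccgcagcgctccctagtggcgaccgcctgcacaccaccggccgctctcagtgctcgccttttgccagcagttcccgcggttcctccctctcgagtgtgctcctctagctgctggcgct
Frzb, chr2:80447347-80447646, - strand: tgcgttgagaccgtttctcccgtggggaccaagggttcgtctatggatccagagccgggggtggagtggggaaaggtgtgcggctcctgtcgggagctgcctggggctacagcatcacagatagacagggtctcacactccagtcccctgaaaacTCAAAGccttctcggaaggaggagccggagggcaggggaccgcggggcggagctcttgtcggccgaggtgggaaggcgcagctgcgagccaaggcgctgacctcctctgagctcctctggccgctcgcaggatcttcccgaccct
Dkk1, chr19:30549447-30549746, - strand: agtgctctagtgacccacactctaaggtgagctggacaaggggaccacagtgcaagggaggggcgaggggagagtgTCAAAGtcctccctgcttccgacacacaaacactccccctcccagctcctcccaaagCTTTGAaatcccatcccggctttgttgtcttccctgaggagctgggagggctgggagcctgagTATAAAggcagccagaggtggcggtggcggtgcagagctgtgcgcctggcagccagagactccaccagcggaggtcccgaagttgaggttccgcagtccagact
Wnt11, chr7:98834862-98835161, + strand: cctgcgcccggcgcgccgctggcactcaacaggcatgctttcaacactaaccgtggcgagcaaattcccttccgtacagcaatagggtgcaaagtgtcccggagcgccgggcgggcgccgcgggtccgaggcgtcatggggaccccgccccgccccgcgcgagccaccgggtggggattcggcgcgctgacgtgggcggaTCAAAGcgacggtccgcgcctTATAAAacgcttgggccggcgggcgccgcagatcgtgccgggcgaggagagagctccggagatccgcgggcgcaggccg
Sfrp2, chr3:83766071-83766370, + strand: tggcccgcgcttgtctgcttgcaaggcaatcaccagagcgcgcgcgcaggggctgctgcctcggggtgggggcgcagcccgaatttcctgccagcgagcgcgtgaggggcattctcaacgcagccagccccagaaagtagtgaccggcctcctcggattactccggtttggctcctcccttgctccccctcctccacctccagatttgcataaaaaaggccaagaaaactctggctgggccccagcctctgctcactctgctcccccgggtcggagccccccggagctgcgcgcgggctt
The table held 33 promoters for 30 of the 45 members. CTTTGA was found in 6 of them (18.2%), where 16.003% of all 32851 promoters held it, and TATAAA in 6 (18.2%, against 13.6% of all). *Dkk1* had 2 copies of CTTTGA and *Frzb* and the printed start of *Wnt11* 1 each, while *Wif1* and *Sfrp2* had none within the 300 bases. CTTTGT, which TCF/LEF and SOX factors share and which shares its first 5 bases with CTTTGA, was found in 6 member promoters (18.2%, against 18.7% of all). The member promoters were rich in CG dinucleotides, with a median of 27 compared with 7 over all promoters. The other of the 2 *Wnt11* promoters in the table, at chr7:98838595-98838894, held neither CTTTGA nor TATAAA. A match is only a run of letters and not a bound site.

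The make-up of each family was compared within libraries, as each member's share of the summed FPKM of its family, a measure that does not depend on how the libraries are scaled to each other. No test was made on shares, since an exact permutation test of 3 libraries against 3 cannot go below p = 0.1. Among the Frizzled genes *Fzd9* took 44.3% to 53.3% in the endogenous libraries and 18.5% to 26.6% in the MSC-derived ones, while *Fzd7* took 4.27% to 5.42% and 21.9% to 23.7%. The endogenous cells were thus led by 1 receptor gene, whereas *Fzd7*, *Fzd9* and *Fzd1* had like shares in the MSC-derived cells. The ranges of *Fzd2* overlapped, with 7.05% to 7.90% and 6.85% to 7.81%. Among the R-spondins *Rspo2* took 74.0% to 81.8% in the MSC-derived libraries and 19.3% to 24.0% in the endogenous ones, where *Rspo4* led with 46.4% to 50.4%.

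*Wif1* made up 62.0% to 65.2% of the summed level of secreted inhibitors in the endogenous cells and 17.4% to 18.0% in the MSC-derived cells, where *Sfrp4* led with 46.0% to 48.3%. *Sfrp2* took 0.582% to 0.815% in the endogenous and 16.003% to 17.5% in the MSC-derived libraries. The ranges of *Frzb* overlapped, with 5.05% to 6.04% and 5.32% to 5.88%. Of the Wnt ligands, *Wnt11* took 40.3% to 50.9% in the endogenous and 59.7% to 69.4% in the MSC-derived libraries, and *Wnt4* 14.5% to 16.3% and 1.62% to 3.09%. The summed level of the inhibitors was 1028 to 1056 FPKM in the endogenous and 82.6 to 83.4 FPKM in the MSC-derived libraries, and that of the ligands 62.2 to 72.0 and 5.91 to 6.80 FPKM. Summed inhibitor levels were thus 14.7-fold to 16.5-fold those of the ligands in the endogenous and 12.3-fold to 13.98-fold in the MSC-derived libraries, ranges that did not overlap. This order rested on *Wif1*: without it, the ratios were 5.19-fold to 5.93-fold in the endogenous and 10.1-fold to 11.5-fold in the MSC-derived libraries.

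**Figure D3:**
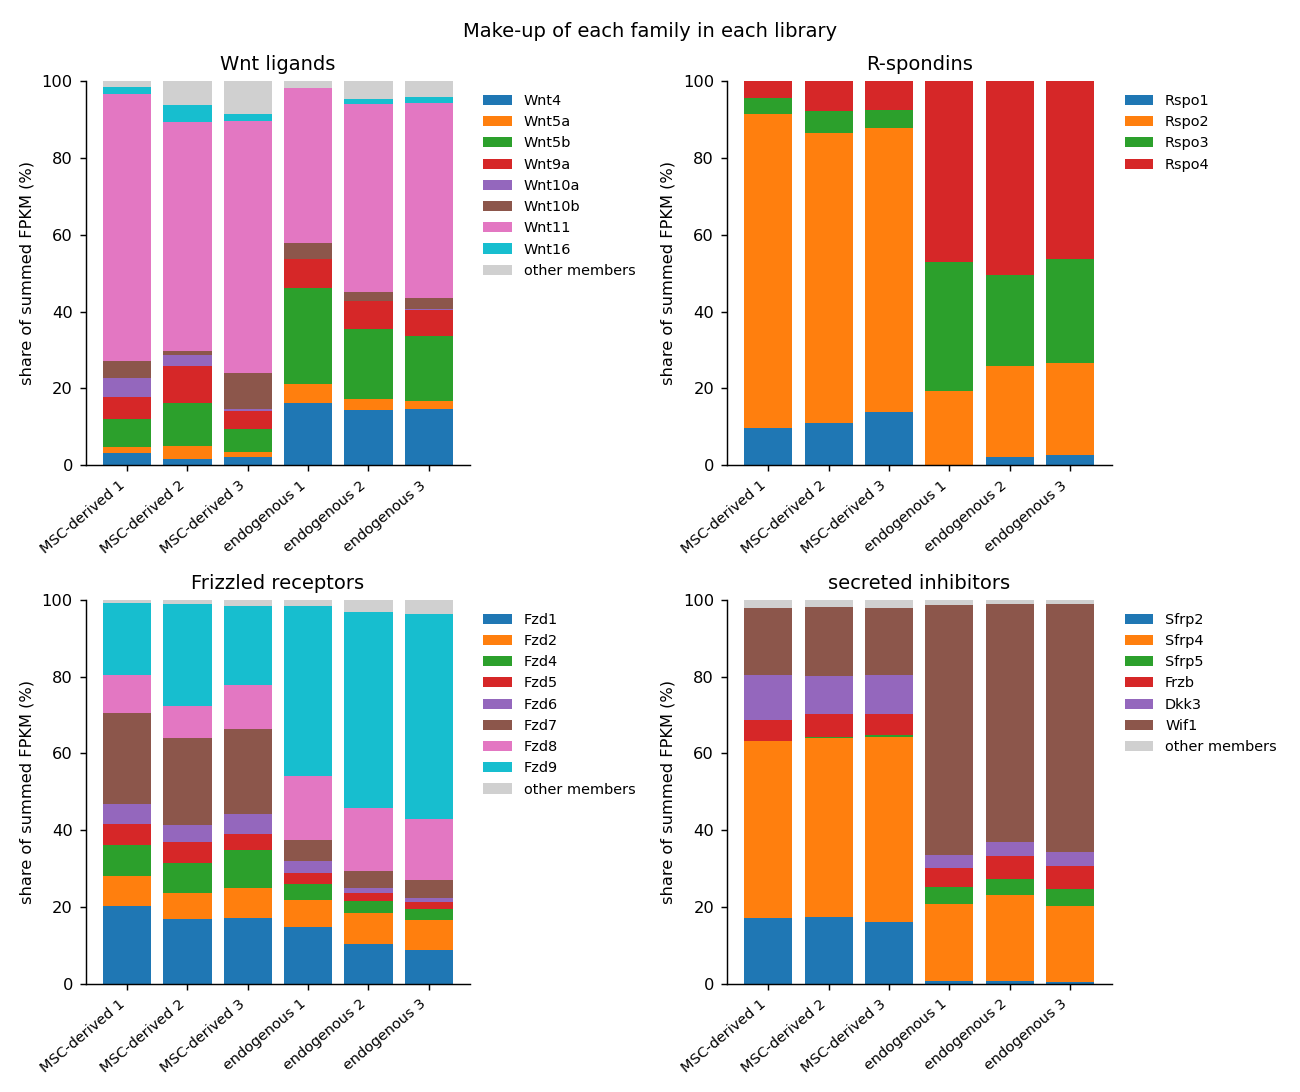
Share of the summed FPKM of each family, in percent, for the 4 families and each of the 6 libraries, with members that never reach 4% pooled as other members. The 3 libraries of a group resemble each other, and the leading gene differs between groups for the R-spondins (*Rspo2* in the MSC-derived, *Rspo4* in the endogenous cells) and the secreted inhibitors (*Sfrp4* and *Wif1*). *Fzd9* leads the Frizzled genes in the endogenous cells, whereas *Fzd7* leads them in 2 of the 3 MSC-derived libraries.

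*Axin2*, a scaffold of the β-catenin destruction complex and a widely used direct target of the pathway, was low in both groups. It had 25, 18 and 18 counts (0.19 to 0.24 FPKM) in the MSC-derived libraries and 126, 191 and 157 counts (a mean of 1.61 FPKM) in the endogenous ones. The groups were apart, with a log2 fold change of -3.03 (SE 0.34, edgeR adjusted p = 0.000158), 0.0738 above the mesenchymal median of -3.10. In a list of other common targets of β-catenin, 12 of 13 tested genes were lower and 1 higher, with a median of -3.20. Among all genes tested, 30.3% were lower and 31.3% higher. The largest falls were those of *Tnfrsf19*, a receptor of the TNF family, at -5.04 (SE 0.25, edgeR adjusted p = 2.13e-06), and *Ccn4*, a matricellular protein of bone, at -4.49 (SE 0.14, edgeR adjusted p = 2.29e-07). The higher gene was *Cd44*, the hyaluronan receptor, at 0.86 (SE 0.08, edgeR adjusted p = 4.40e-05). Leukocytes also express *Cd44*, and the part of different cell types was not tested for any gene of this list, lower or higher.

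Genes that make, modify or restrain the ligands outside the cell also fell, with 12 of 14 tested genes lower, 1 higher and a median of -2.66. The shares over all genes tested were 30.3% lower and 31.3% higher. *Notum*, the esterase that removes the lipid from WNT ligands, had 1045, 1571 and 1601 counts in the endogenous libraries and 14, 5 and 6 in the MSC-derived ones. It was close to absent from the latter (log2 fold change -7.45, SE 0.34, edgeR adjusted p = 1.27e-06). *Apcdd1*, a membrane-bound inhibitor, fell by 5.47 on the log2 scale (SE 0.31, edgeR adjusted p = 3.84e-06). The higher gene was *Tmed5*, of the early secretory pathway, at 1.18 (SE 0.09, edgeR adjusted p = 1.51e-05). Of the R-spondin receptors, named here after their values were seen, *Lgr6* averaged 51.3 ± 6.23 FPKM in endogenous and 1.96 ± 0.198 FPKM in MSC-derived libraries (SD, n = 3) and *Lgr4* 8.56 ± 2.17 and 1.39 ± 0.0964 FPKM, both called lower, and *Lgr5* was not called.

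The lists of genes that act inside the cell had medians nearer to 0, a difference that was not tested. Of 22 genes of the destruction complex and Dishevelled, which pass on the signal in most cell types, 11 were lower, 1 was higher and 10 were not called, with a median of -0.37. Over all genes tested, 30.3% were called lower and 31.3% higher. *Dixdc1*, a Dishevelled partner, had the largest fall (-4.17, SE 0.20, edgeR adjusted p = 1.89e-06), followed by *Ctnnb1*, the gene of β-catenin itself (-1.56, SE 0.11, edgeR adjusted p = 1.38e-05). *Ctnnb1* averaged 98.6 ± 15.8 FPKM in endogenous and 36.3 ± 0.791 FPKM in MSC-derived libraries (SD, n = 3). *Ccdc88c*, another Dishevelled partner, was higher at 2.24 (SE 0.50, edgeR adjusted p = 0.00606). Without endogenous replicate 1, where more of all genes were called (38.6% lower and 37.8% higher), this list had 13 lower and 3 higher.

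Among 16 TCF/LEF factors and nuclear cofactors 8 were lower and 2 higher (30.3% and 31.3% over all genes tested), with a median of -0.38. *Pygo1*, a β-catenin cofactor, and *Lef1*, a TCF/LEF factor, fell by 3.42 and 3.37 on the log2 scale (SEs 0.37 and 0.16, edgeR adjusted p = 0.000131 and 1.53e-06). *Tcf7l2*, the TCF/LEF gene with the highest level, averaged 32.6 ± 1.59 FPKM in MSC-derived and 17.1 ± 3.89 FPKM in endogenous libraries (SD, n = 3) and was called higher at 0.82 (SE 0.15, edgeR adjusted p = 0.00237). *Tle4*, a corepressor, was higher too, at 1.72 (SE 0.16, edgeR adjusted p = 5.29e-05). Without endogenous replicate 1, 10 of this list were lower and 2 higher. In the polarity and calcium branches 14 of 21 genes were lower and 1 higher (30.3% and 31.3% over all genes tested), with a median of -1.90. The largest falls were those of *Celsr2*, an atypical cadherin (-4.09, SE 0.76, edgeR adjusted p = 0.00240), and *Ptk7*, a pseudokinase (-3.91, SE 0.29, edgeR adjusted p = 1.73e-05). *Celsr2* had only 1, 13 and 4 counts in the MSC-derived libraries and 99, 101 and 98 in the endogenous ones, so its fold is unsure. The higher gene was *Camk2d*, a calcium-dependent kinase (0.88, SE 0.11, edgeR adjusted p = 0.000351). Without endogenous replicate 1, 15 of the polarity and calcium genes were lower and 2 higher. In that fit 14 of 15 tested secretion genes were lower and 1 higher, and the counts of the target list were as before.

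**Figure D4:**
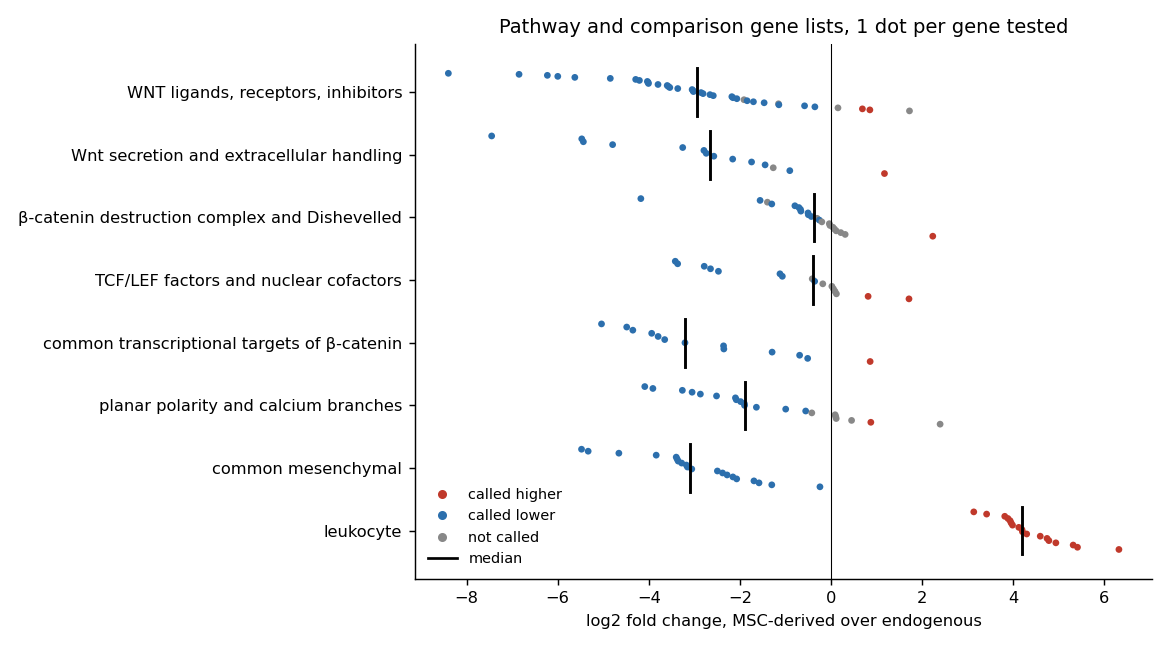
The log2 fold change of each tested gene, 1 dot each, in the 38 WNT members, 5 lists of other pathway genes and 2 comparison lists, with the median of each list as a black line and colours for the call at an adjusted p of 0.05. The medians of the members (-2.94), of the β-catenin targets (-3.20) and of the common mesenchymal genes (-3.10) lie close together, those of the destruction complex (-0.37) and TCF/LEF lists (-0.38) near 0, and that of the leukocyte genes at 4.20.

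Genes of blood cells moved against most WNT members, and in the same direction as *Rspo2* and *Sfrp2*. For the counts of marker genes below, the shares over all genes tested were 31.3% higher and 30.3% lower. All 18 leukocyte, 15 macrophage, 12 neutrophil and 11 erythroid genes of 4 marker lists were called higher in the MSC-derived cells, with summed levels of 21583 to 22221 FPKM for macrophages, 119386 to 127110 FPKM for neutrophils and 32244 to 33300 FPKM for erythroid cells there, and of 400.0 to 570.7, 4162 to 6651 and 4806 to 7074 FPKM in the endogenous libraries. None of these lists had a gene at 0 in either group. All 16 chondrocyte genes and 11 of 12 osteoblast genes were called lower, the latter at 1225 to 1248 summed FPKM in the MSC-derived cells. A list of synovial lining and superficial zone genes was nearer to even, with 5 of 8 genes lower, 1 higher and a median of -0.56. The endothelial list had 7 of 10 genes higher, at 38.3 to 41.5 against 6.57 to 15.6 summed FPKM. The adipocyte list had 3 of 7 higher and 4 lower, at 513.2 to 531.2 against 474.1 to 510.7 summed FPKM, with *Lep* at 0 in the MSC-derived libraries. Its sums lay close but were made up of different genes. *Fabp4* averaged 383.3 FPKM in MSC-derived and 39.5 FPKM in endogenous libraries, whereas *Adipoq* averaged 0.927 and 146.3 FPKM. The muscle list had 1 of 6 lower and 5 not called, at 9.08 to 10.2 against 10.9 to 13.2 summed FPKM, with *Myh4* at 0 in the endogenous libraries. The part of these cells in the levels of the WNT genes was not tested.

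Exons of 8 members overlap an exon on the opposite strand of another gene in the GENCODE M21 annotation, namely *Axin2*, *Fzd5*, *Fzd6*, *Rspo3*, *Sfrp2*, *Wnt11*, *Wnt5a* and *Wnt7b*. Whether strand was used in counting is not given in the sources used here, and without it reads of such pairs cannot be told apart.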

How the data were processed

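RNA of Tomato+ cells sorted from knee cartilage was sequenced by the authors in 6 libraries, 3 per group, from 3 mice each per the paper. Reads were filtered with SOAPnuke, aligned with HISAT2 and Bowtie2 and quantified with RSEM. Per the labels, the submitters' processing notes name Bowtie2 2.2.5, RSEM 1.2.12 and mm9, and the paper names other versions. The authors deposited expected counts per gene without normalization, FPKM (scaled to transcript length and library size) and TPM (scaled to the same sum in every library), in 18 columns.

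Expected counts were rounded and tested with edgeR 4.0.16 (R 4.3.3; TMM, filterByExpr, glmQLFit, glmQLFTest), with Benjamini-Hochberg adjustment over 14289 genes. The fit was also run on simulated counts with few changed genes, balanced between up and down. That run does not cover data in which as many genes differ as here. A standard error is the size of the log2 fold change over the square root of F. Alternatives were DESeq2 1.42.0, 3 other normalizations, 2 other filters, limma 3.58.1 on log2 FPKM (pseudocounts 1 and 0.1), a replicate block, a threshold of 0.001, centring on the mesenchymal genes and each library left out. Limma on log2(TPM + 0.1) was chosen after seeing the data. A floor of 3 counts was 0.121 to 0.136 CPM, for counting error only. Figures used matplotlib 3.10.9.

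The members, the pathway and marker lists and the tests were chosen with earlier results of these data known. Members at 1 FPKM or more in either group, or called, were described by name, with the 2 largest called changes per direction of each pathway list and the leading genes of marker lists. Same-numbered libraries come from different mice, and correlations of their deviations from group means were 0.002 to 0.018, so the numbers were not taken to pair them. The labels do not say how libraries relate to mice beyond their number, so p-values measure the spread between these libraries. Columns of group averages and of counts rescaled by the authors were not used.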

Additional observations from a re-analysis of the deposited data

How the results depend on the processing

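In the alternatives that rescaled, filtered or refitted all 6 libraries, 30 to 32 members were called lower and 0 to 3 higher, and with each library left out in turn 30 to 36 were lower and 2 to 3 higher (all genes 3761 to 5686 lower and 3672 to 5563 higher). The call of a higher member was lost in limma on log2(TPM + 0.1), which called 0 higher (also 0 at an unadjusted p of 0.05, against 2 by edgeR and DESeq2), and at the threshold of 0.001 with edgeR, which left 0 higher (2 at an unadjusted p of 0.05) and 26 lower among the members and 2134 higher and 2380 lower among all genes. The TPM fit moved the median log2 fold change of all genes from 0.05 to -0.34, total counts to 0.16 and limma on log2 FPKM to 0.13 and 0.19, and the TPM fit turned the sign of *Lrp6* (-0.29). Total counts also called *Lrp6* higher. The cause was not tested.

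The replicate number as a block changed 1 call among the members, that of *Dkk2*, with 2 higher and 31 lower, and left 4103 higher and 3920 lower genes overall. The libraries share only a number, and not every library correlated best with its own number.

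Subtracting the median of the mesenchymal genes (-3.10) turned 16 called decreases positive by construction: *Wnt10b* 0.30, *Wnt11* 0.0553, *Fzd1* 0.95, *Fzd2* 0.25, *Fzd3* 0.0843, *Fzd4* 1.64, *Fzd5* 1.40, *Fzd6* 1.96, *Fzd7* 2.53, *Lrp5* 2.75, *Ryk* 0.45, *Sfrp1* 1.04, *Sfrp4* 0.52, *Dkk2* 1.26, *Dkk3* 0.93 and *Axin2* 0.0738. Members with under about 20 counts in a group, such as *Wnt7b*, *Dkk1* and *Sfrp5*, are limited by depth, and leaving out a library moved the log2 fold change of *Dkk1* between -11.07 and -6.28.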
